A study of Homo sapiens with 16 samples.

Results

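Of 149504 chromatin regions found open in at least 1 paired-end ATAC-seq library of IMR-90 ER:Ras fibroblasts, 2220 carried a peak in both libraries of proliferating cells and in none of the 4 libraries of senescent cells. These are called closed regions here. Overlapping peaks (1 bp or more, chromosomes 1 to 22) of the 10 paired-end lists were merged into regions, and the closed regions were picked from the Pro and Sen lists alone, so their presence in Pro and absence from Sen is the way they were chosen and not a finding. They made up 3.96% of the 56078 regions listed in both Pro libraries, whereas 48397 regions, called kept, were listed in both Pro and all 4 Sen libraries. The count depends on the lists: choosing without Pro replicate 1 gave 3736 regions and without Pro replicate 2 gave 3516, a −log10 q of at least 20 in Pro left 807, lists of equal length gave 7066, and absence from Sen replicates 1 and 2 alone gave 3587.

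Open chromatin marks promoters and enhancers, where transcription factors displace or exclude nucleosomes and a transposase can cut. Senescence is a lasting arrest of the cell cycle. When it is driven by an oncogene such as Ras, large sets of enhancers become accessible, many with sites for AP-1, the dimeric factor of JUN and FOS family proteins, while other elements of the proliferating cell lose accessibility. Forkhead factors such as FOXF1 and FOXF2 act in mesenchymal cells of the lung, p300 and CBP are acetyltransferases recruited to enhancers, and p65 is the RELA subunit of NF-kB, which drives inflammatory genes of the senescent secretory programme.

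The established fibroblast line IMR-90 derives from human lung, and its ER:Ras derivative carries an oncogenic Ras fused to an oestrogen receptor that responds to 4-hydroxytamoxifen (4-OHT). Every library came from this 1 line. The paired-end libraries (35 bp reads) were 2 with siRNA named for cJUN and JUND in the titles and for cJUN, JUNB and JUND in the treatment label (JUN-family knockdown), 2 with siRNA against FOXF1/2 (siFOXF1/2), 4 with control siRNA (Sen), all of which had received 100 nM 4-OHT for 6 days, and 2 with control siRNA and no 4-OHT (Pro). The Pro libraries are labelled with a senescent cell type and only their titles give them as proliferating. The single-end libraries (75 bp reads) were 2 with siRNA against p300/CBP, 2 against p65 and 2 with control siRNA, all with the same 4-OHT treatment. The JUN-family, FOXF1/2, p300/CBP and p65 knockdowns were thus made in senescent cells, and their efficiency cannot be read from peak lists. Fibroblast identity was not checked, because the lists carry no gene names. No label says that replicates were separate cultures, so p-values measure the spread between these libraries, which may be technical.

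Each list held 60199 to 108323 peaks in the paired-end and 17899 to 71181 in the single-end set. As a measure of depth, genome-wide background coverage was computed from the peak values. It was 3.08 and 2.01 in the JUN-family knockdown libraries, 2.61 and 1.93 in siFOXF1/2, 2.50 to 3.06 in Sen and 1.74 and 1.98 in Pro. The level of a region in a library is the summit pileup, the coverage at the peak's highest point, divided by that background. The smallest level listed in the Sen libraries was 4.58 to 5.20. An unlisted region could have lain anywhere below such a limit, or above it where the local background was high. The single-end libraries were shallower, with a background of 0.195 to 0.475, and their smallest listed levels were 14.7 to 25.7.

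In Pro the closed regions had a median level of 16.7 (5th to 95th percentile 9.43 to 35.8), against 37.3 and 37.9 in Pro replicates 1 and 2 at the kept regions. Their levels ran from 6.98 to 97.4, so they included peaks close to the limit of listing as well as strong ones. Between the 2 Pro libraries, which both had to list a peak, 99.2% of the closed regions lay within 2-fold, and the log2 ratio of Pro replicate 2 to 1 had an SD of 0.36 over the closed regions and 0.27 over the kept ones. The summits of the 2 Pro libraries were a median of 22 bp apart at the closed regions and 13 bp at the kept ones. Just outside the rule, 1068 regions of both Pro lists had a peak in 1 Sen list, with a median Pro level of 18.1, and 2777 regions with no Sen peak were listed in only 1 Pro library, with a median level of 12.1. The single Sen peak of the 1068 regions came from each Sen library: 276 from replicate 1, 161 from replicate 2, 336 from replicate 3 and 295 from replicate 4. Its median level was 8.83 to 11.6, below the Pro level.

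How far accessibility fell can only be bounded. The lowest Pro level of a region was divided by the highest of the smallest levels listed in Sen. This gives a lower bound on the fold, Pro over Sen, if that limit of listing holds at every region. This bound was at least 2-fold at 1818 closed regions (81.9%). When the local background around each Pro peak was carried over to Sen, which raises the limit there, 1461 regions (65.8%) reached a 2-fold bound, and the median bound was 2.29. The remaining closed regions were not shown to differ by 2-fold at this depth.

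The 12 strongest closed regions, ranked by the lower −log10 q of the 2 Pro libraries, had mean Pro levels of 42.5 to 86.3 and local bounds of 3.90 to 6.25. All of them are given in hg19 coordinates. The first was chr15:38828464-38829006, where the level was 26.3 and 29.8 in the JUN-family knockdown libraries, 27.9 and 23.9 in siFOXF1/2, and 78.1 and 62.2 in Pro, with no peak listed in the 4 Sen libraries. All 4 knockdown libraries lay below both Pro libraries and well above the smallest level listed in Sen, and Pro was at least 5.76-fold above what Sen could have left unlisted. A peak was also listed there in both single-end p300/CBP knockdown libraries, in 1 of the p65 knockdown libraries and in neither single-end Sen library.

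The second region, chr18:73294308-73294927, had levels of 14.3 and 15.9 in the JUN-family knockdown libraries and of 54.0 and 51.6 in Pro, and was unlisted in siFOXF1/2 as in Sen. The third, chr11:8730589-8731138, was listed in siFOXF1/2, with 8.80 and 8.31 against 61.4 and 63.7 in Pro, and in neither JUN-family knockdown library. Its local bound was 5.63, which allows an unlisted Sen level above both siFOXF1/2 levels. A difference in level between siFOXF1/2 and Sen is therefore not shown at the third region. At both the second and the third region the listed knockdown levels lay far below the Pro levels and did not overlap them. The highest Pro levels of the 12 were at chr5:148786144-148786612, with 25.3 and 21.9 after JUN-family knockdown and 82.7 and 89.99 in Pro, and at chr3:187988231-187988558, with 28.2 and 33.8 after JUN-family knockdown, 58.9 in siFOXF1/2 replicate 1 only, and 88.4 and 76.8 in Pro. The peak in siFOXF1/2 replicate 1 had no counterpart in replicate 2. Both JUN-family knockdown libraries listed a peak at 10 of the 12 regions and both siFOXF1/2 libraries at 4. Over all closed regions the shares were 29.1% for JUN-family knockdown and 24.1% for siFOXF1/2, and over all kept regions 78.7% and 95.6%. Mean levels of peaks listed in both libraries of a knockdown were 0.273 to 0.604 times Pro for JUN-family knockdown. For siFOXF1/2 they were 0.137 to 0.563 times Pro. Every knockdown level listed at these 12 regions lay below both Pro levels. The 12 were ranked on their Pro peaks, so levels below Pro in other libraries are in part set by that choice. Among kept regions in both lists of a knockdown, 6.54% exceeded Pro after JUN-family knockdown and 54.3% in siFOXF1/2. The median ratios to Pro there were 0.491 and 1.05, so levels after JUN-family knockdown were low beside Pro at most kept regions as well.

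**Figure D1:**
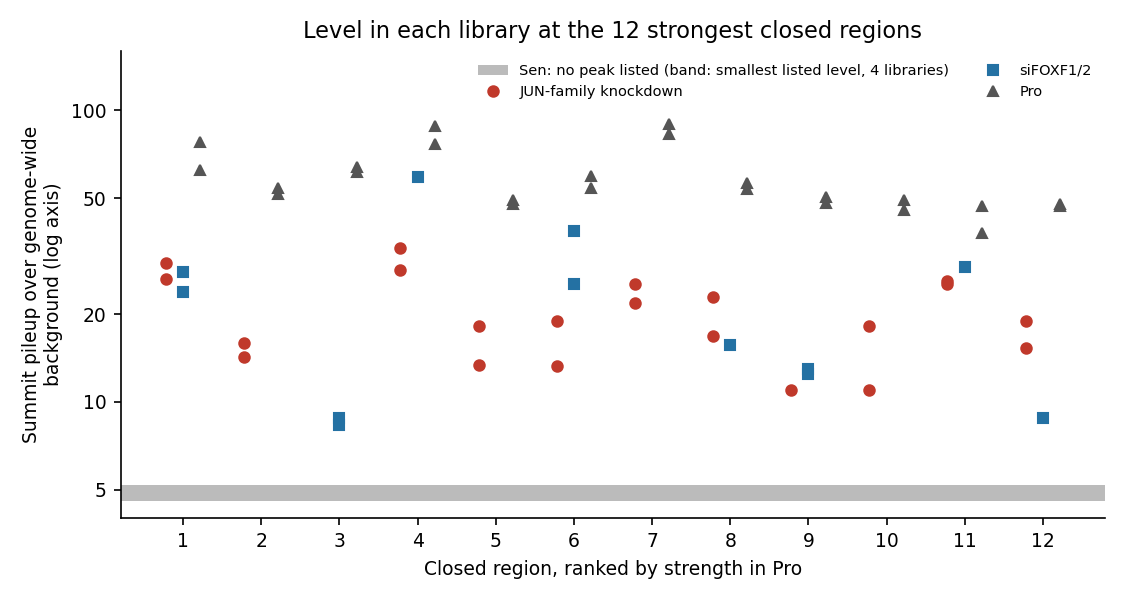
Level (summit pileup over genome-wide background, log axis) of the 12 strongest closed regions in each JUN-family knockdown (circles), siFOXF1/2 (squares) and Pro (triangles) library, 1 point per library that listed a peak. The grey band spans the smallest level listed anywhere in the 4 Sen libraries, 4.58 to 5.20. With the local background of Pro carried over, the limit in Sen lies above the band at these regions (local bounds of 3.90 to 6.25), which is not drawn. The strongest region has 26.3 and 29.8 after JUN-family knockdown and 78.1 and 62.2 in Pro.

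The knockdown libraries did not choose the closed regions, so their peaks there can be counted. Both JUN-family knockdown libraries listed a peak at 645 closed regions (29.1%), beside 10.7% of all 27927 regions with no Sen peak, 11.4% of the 2777 such regions with 1 Pro peak and 8.9% of the 22930 with 0 Pro peaks. Both siFOXF1/2 libraries listed a peak at 536 closed regions (24.1%), beside 30.9% of all regions with no Sen peak, 16.6% of those with 1 Pro peak and 33.3% of those with 0. Regions with 0 Pro peaks are in the table only because at least 1 knockdown list held a peak there, and the siFOXF1/2 lists, the longer ones, admit more of them. The backgrounds over all regions with no Sen peak are therefore set in part by how regions entered the table. Beside regions with 1 Pro peak, which entered through Pro, both shares of the closed regions were the higher, and the closed regions were also the stronger in Pro. At kept regions the same shares were 78.7% for JUN-family knockdown and 95.6% for siFOXF1/2.

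Taken library by library, 38.7% and 33.9% of the closed regions had a peak in the JUN-family knockdown libraries and 35.4% and 27.4% in siFOXF1/2. The means were 36.3% ± 3.41 and 31.4% ± 5.64 (SD, n = 2 each), the ranges overlapped, and the difference of 4.95 percentage points gave p = 0.667 in a two-sided exact permutation test over libraries, where 0.333 is the smallest possible. The difference moved widely with the choice of regions. It was −1.12 points without Pro replicate 1 and −9.90 points with Sen replicates 3 and 4 alone, but 9.33 points with Sen replicates 1 and 2 alone, 12.9 points at a −log10 q of at least 20 in Pro and 23.9 points with lists of equal length. The last 3 and the −9.90 points each had p = 0.333 in the exact permutation test. At kept regions JUN-family knockdown lay below siFOXF1/2, with 83.5% ± 0.259 and 97.0% ± 0.717 (SD, n = 2 each).

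The closed regions were sorted into classes by the 4 knockdown lists. The classes were not sharply separated. Only 1 of the 2 libraries listed a peak at 323 closed regions for JUN-family knockdown and at 321 for siFOXF1/2. None of the 4 listed a peak at 777 closed regions (35%), and 1443 (65%) had a peak in at least 1. Both JUN-family knockdown libraries and no siFOXF1/2 library listed 382 regions, the reverse held for 314, and all 4 libraries listed 140. Of the 645 regions in both JUN-family knockdown lists 21.7% were also in both siFOXF1/2 lists, and of the 1252 regions in no JUN-family knockdown list 25.1% were. Both lie near the 24.1% of all closed regions. The class in none of the 4 lists had a median Pro level of 15.1 and a median width of 283 bp, and the class in all 4 had 19.1 and 475 bp. Width is not independent of the lists, since peaks of all 10 were merged.

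Within each class the strongest regions were examined by the same ranking on Pro, which again favours knockdown levels below Pro. Among regions in both JUN-family knockdown lists and no siFOXF1/2 list, chr2:170664761-170665191 had levels of 18.2 and 13.4 after JUN-family knockdown and of 49.4 and 47.5 in Pro, and the 5 strongest had JUN-family knockdown levels of 0.227 to 0.326 times Pro. Among regions in both siFOXF1/2 lists and no JUN-family knockdown list, chr2:159440466-159440794 had 38.3 and 41.01 in siFOXF1/2 and 36.7 and 31.9 in Pro, and chr4:150994230-150994642 had 38.6 and 33.2 in siFOXF1/2 and 35.6 and 31.3 in Pro. At the first of these the siFOXF1/2 levels lay above both Pro levels, and a peak was also listed in both single-end p300/CBP knockdown libraries and in both single-end Sen libraries, so senescent control cells of the other layout did list it. At the second the siFOXF1/2 and Pro ranges overlapped. The other 3 of the 5 strongest in this class lay below Pro, down to 0.137 times Pro at chr11:8730589-8731138.

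Some strong regions were listed in no knockdown library. The strongest of these, chr16:16135937-16136256, had Pro levels of 44.8 and 37.9, and chr15:80776722-80777152 had 67.7 and 78.9. Their local bounds were 4.74 and 3.53. The 5 strongest such regions ranked only 19th to 60th among all closed regions, and none of them had a single-end peak of any group.

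The regions with the strongest peaks in all 4 knockdown lists reached levels near or above Pro in several cases. At chr6:658130-658557 the level was 25.6 and 33.3 after JUN-family knockdown, 21.4 and 32.7 in siFOXF1/2, and 23.5 and 28.8 in Pro, so that all 3 groups overlapped while the 4 Sen lists held no peak. At chr12:11093037-11093377 it was 21.4 and 20.9 after JUN-family knockdown, 52.8 and 44.1 in siFOXF1/2, and 19.5 and 17.7 in Pro, where every knockdown library exceeded both Pro libraries. That region also had a peak in both single-end p300/CBP knockdown libraries, in 1 p65 knockdown library and in both single-end Sen libraries, so 2 senescent control libraries of the other layout did list it. At chr11:116758414-116759096 the levels were 27.6 and 27.3 after JUN-family knockdown, 32.1 and 41.5 in siFOXF1/2, and 28.7 and 26.3 in Pro. The JUN-family knockdown levels there fell between the Pro levels, and the siFOXF1/2 levels lay above them. These regions were ranked on their knockdown peaks, so high levels there are part of the choice.

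**Figure D2:**
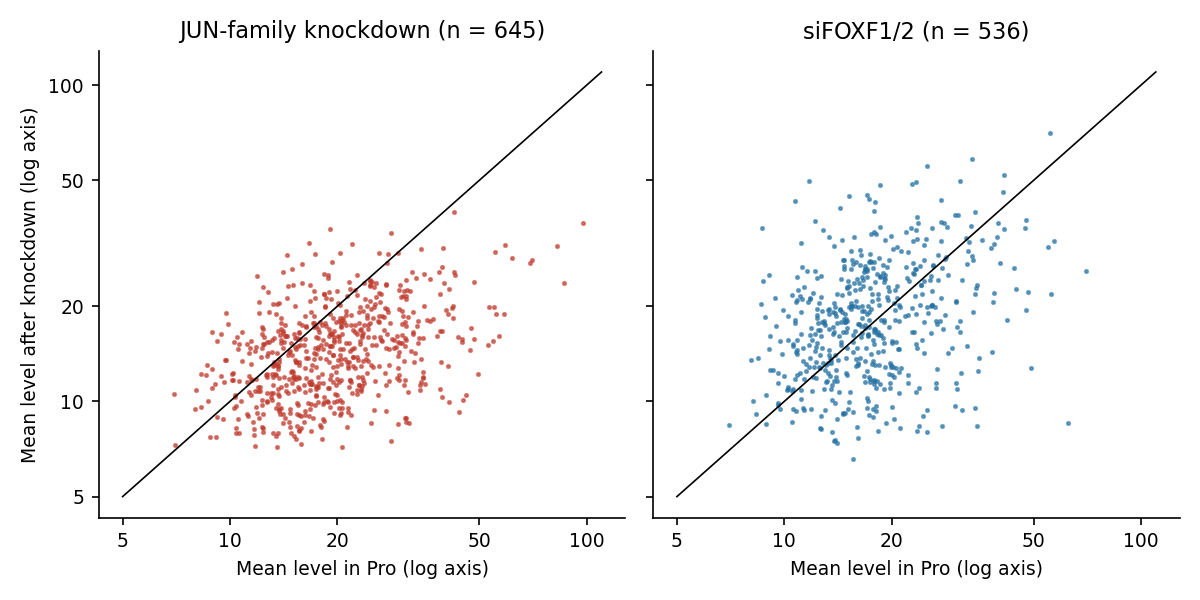
Mean level after knockdown against mean level in Pro (log axes, summit pileup over genome-wide background), 1 point per closed region listed in both JUN-family knockdown libraries (left, 645 regions) or both siFOXF1/2 libraries (right, 536 regions); the line marks equal levels. Most points lie below the line on the left, where 22.02% exceed Pro, and points lie on both sides on the right, where 54.5% do.

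Peaks that were listed after knockdown stood near the Pro peak, which is in part set by the merging of overlapping peaks into regions. The median distance between the mean summit positions was 24.5 bp for JUN-family knockdown and 22.5 bp for siFOXF1/2, near the 22 bp between the Pro replicates. At kept regions in both lists of a knockdown it was 21.5 bp and 21 bp. The closeness was thus not particular to the closed regions. The median ratio of the knockdown to the Pro level was 0.742 at the 645 regions in both JUN-family knockdown lists, beside 0.491 at the kept regions in both lists, and 22.02% of the 645 exceeded Pro. At the 536 regions in both siFOXF1/2 lists the median ratio was 1.06, beside 1.05 at kept regions, and 54.5% exceeded Pro. Both sets were selected for holding a peak after knockdown, and closed regions had lower Pro levels than kept ones, so a low ratio could not be listed as often among them.

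Because the 4 Sen lists were used for the choice, a held-out comparison was made. Peak names follow 1 style in siFOXF1/2, Sen replicates 1 and 2 and Pro, and another in JUN-family knockdown and Sen replicates 3 and 4, and the labels do not say whether these sets were prepared separately. Regions in both Pro lists and absent from Sen replicates 1 and 2 numbered 3587. Of these, 48.9% and 44.0% had a peak in the JUN-family knockdown libraries, against 29.9% and 28.7% in Sen replicates 3 and 4, which had no part in choosing them. Both knockdown libraries lay above both Sen libraries by 17.1 points on average (two-sided exact permutation p = 0.333, no smaller p being possible with 2 against 2). The knockdown lists held 62787 and 60199 peaks in all, against 98740 and 101722 in these Sen lists. The difference was 4.45 points when Sen replicate 1 was left out of the choice, 10.6 points without Sen replicate 2, and 34.3 points with lists of equal length.

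In the opposite arrangement, 3025 regions in both Pro lists were absent from Sen replicates 3 and 4. Of these, 44.9% and 38.0% had a peak in the siFOXF1/2 libraries, against 21.3% and 17.5% in Sen replicates 1 and 2. The difference was 22.03 points, again with every knockdown library above every Sen library and p = 0.333 in the two-sided exact permutation test, the smallest possible; with lists of equal length it was 14.1 points. Across name styles the differences were smaller, with 41.9% and 32.3% for siFOXF1/2 in the first set and 33.7% and 29.4% for JUN-family knockdown in the second. The held-out Sen shares show that 29.3% ± 0.808 and 19.4% ± 2.69 (SD, n = 2 each) of regions missing from 1 pair of Sen libraries were listed by the other pair with no knockdown at all, and the shares after knockdown are to be read against these values.

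The same comparison was made on either side of a −log10 q of 40.5 in Pro, the median of all regions in both Pro lists. Above it, 358 regions were absent from Sen replicates 1 and 2, of which 80.7% and 77.4% had a peak after JUN-family knockdown, against 58.7% and 57.5% in Sen replicates 3 and 4. Likewise 143 were absent from Sen replicates 3 and 4, of which 59.4% and 44.1% had a peak in siFOXF1/2, against 16.1% and 7.69% in Sen replicates 1 and 2. Below it, the means were 42.8% after JUN-family knockdown against 26.1% in Sen replicates 3 and 4, and 40.9% in siFOXF1/2 against 19.8% in Sen replicates 1 and 2. In these pairs of the same name style the knockdown libraries were the higher ones on both sides. Across styles this held except at the 358 stronger regions absent from Sen replicates 1 and 2. There siFOXF1/2 listed 57.3% and 41.1%, below the 58.7% and 57.5% of Sen replicates 3 and 4. At the weaker regions of that set the means were 35.8% in siFOXF1/2 and 26.1% in Sen replicates 3 and 4. Among regions absent from Sen replicates 3 and 4, the JUN-family knockdown libraries were the higher on both sides. The means were 65.4% against 11.9% in Sen replicates 1 and 2 above the median, and 29.8% against 19.8% below it.

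**Figure D3:**
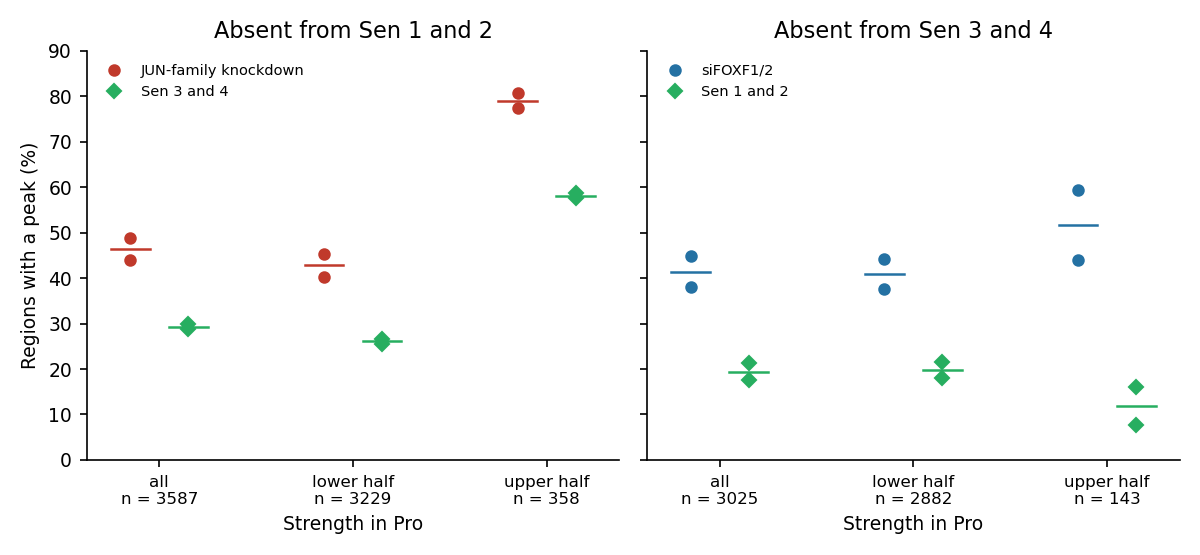
Percent of regions with a peak in each library, for regions in both Pro lists and absent from Sen replicates 1 and 2 (left, JUN-family knockdown beside Sen 3 and 4) or from Sen replicates 3 and 4 (right, siFOXF1/2 beside Sen 1 and 2), in all regions and below and above the median Pro strength; points are libraries and lines are means. Every knockdown point lies above the Sen points beside it, with 48.9% and 44.0% against 29.9% and 28.7% in the first pair.

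Presence after knockdown followed the number of Sen lists that held a region. From 0 to 4 Sen lists, the regions in both Pro lists numbered 2220, 1068, 1676, 2717 and 48397. The mean share with a JUN-family knockdown peak was 36.3%, 39.7%, 48.3%, 52.9% and 83.5% in that order, and the mean share with a siFOXF1/2 peak was 31.4%, 50.9%, 61.2%, 74.8% and 97.0%. The mean for JUN-family knockdown was the higher at 0 Sen lists, a difference within the spread between libraries, and the lower at 1 to 4. The median Pro level rose along the same series, with 16.7, 18.1, 20.2, 21.2 and 37.6, so strength and the number of Sen lists moved together.

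**Figure D4:**
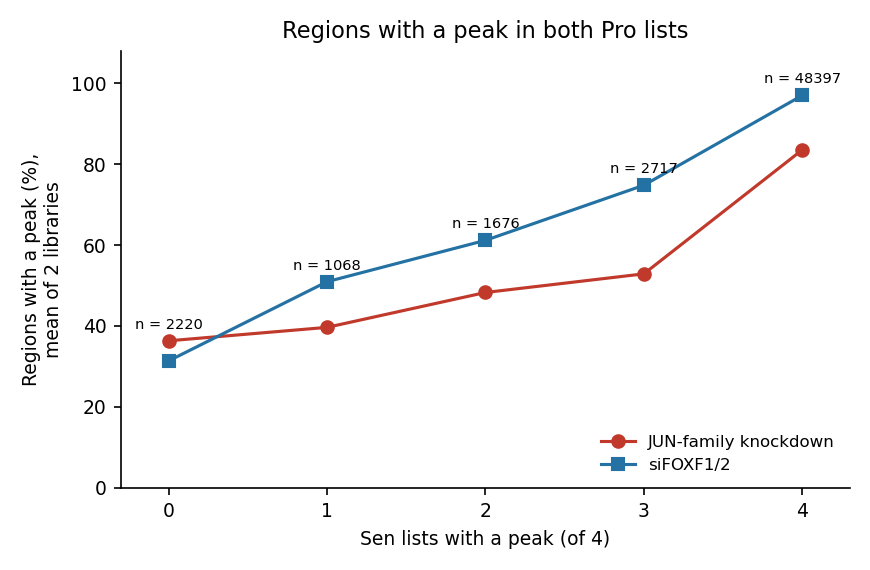
Mean percent of regions with a peak in the 2 JUN-family knockdown libraries (circles) and the 2 siFOXF1/2 libraries (squares) against the number of Sen lists, of 4, that hold the region, for regions in both Pro lists. Both lines climb from the closed regions at 0 lists (36.3% and 31.4%) to the kept regions at 4 (83.5% and 97.0%).

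Closing was most frequent among weak peaks. Over 10 equal bins of Pro strength, 13.5% of regions were closed in the weakest bin, 2.68% in the fifth and 0 of 5607 in the strongest. The share of closed regions with a peak after JUN-family knockdown was 25.1% in the weakest bin and 84.8% in the seventh (33 regions), and for siFOXF1/2 it was 27.3% and 48.5%. In the upper 5 bins together, 117 closed regions had a peak in 70.1% and 67.5% of cases after JUN-family knockdown. In siFOXF1/2 the shares were 53.8% and 35.0%, so the JUN-family knockdown libraries were both the higher. Kept regions of the same 5 bins had a peak in 96.9% and 96.7% of cases after JUN-family knockdown and in 99.2% and 99.5% in siFOXF1/2. Kept regions of any bin, weighted to the strength of all closed ones, had a peak in 61.1% and 60.5% of cases after JUN-family knockdown. In siFOXF1/2 these shares were 91.7% and 93.9%. At equal strength the closed regions lay below the kept ones in all 4 knockdown libraries, by more in siFOXF1/2. Closed and kept regions were set apart by the lists of senescent control cells, and the knockdowns were made in senescent cells. Lower shares at the closed regions are therefore in part set by the choice. Weak peaks lie nearer the limit of listing in every library, and its part in the gradient was not tested.

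**Figure D5:**
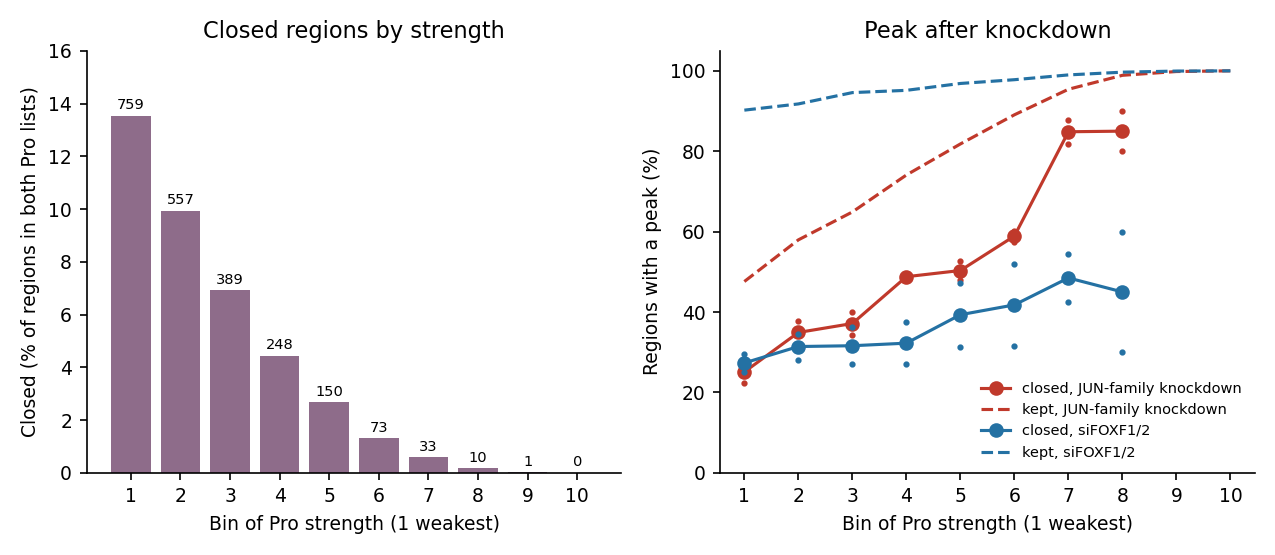
Left, percent of regions in both Pro lists that are closed, by bin of Pro strength (lower −log10 q of the 2 Pro lists, 10 equal bins, counts of closed regions above the bars). Right, percent of closed (solid, with 1 small point per library) and kept (dashed) regions with a peak after JUN-family knockdown or in siFOXF1/2; bins with under 10 closed regions have no solid point. Closing falls from 13.5% in the weakest bin, and the JUN-family knockdown line of the closed regions climbs from 25.1% to 84.8% in bin 7.

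The single-end libraries, which also had no part in the choice, listed few closed regions. A peak was found at 13.0% and 5.59% of closed regions after p300/CBP knockdown, at 2.39% and 0.135% after p65 knockdown, and at 3.38% and 3.74% in single-end Sen. In both libraries of a group together these were 4.5% for p300/CBP knockdown, 0.135% for p65 knockdown and 1.71% for Sen, beside 47.4%, 25.4% and 54% of all regions in both Pro lists. At kept regions of the same Pro strength the shares were 44.4% and 29.6% after p300/CBP knockdown, 34.9% and 11.3% after p65 knockdown, and 40.9% and 52.8% in Sen. In all, 2100 closed regions (94.6%) had no peak in either single-end Sen library. The smallest listed level was 14.7 in single-end Sen replicate 2 and 18.9 to 25.7 in the other 5 single-end libraries. The median Pro level of the closed regions was 16.7, but levels of the 2 layouts were not put on a common scale. The part of these limits in the low single-end shares was not tested.

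Both p300/CBP knockdown libraries lay above both single-end Sen libraries at the closed regions, by 5.72 points on average (p = 0.333 in the two-sided exact permutation test, its smallest value). The 2 knockdown libraries differed more from each other than the lower one did from Sen, and the difference was 2.03 points without p300/CBP knockdown replicate 1 and 9.41 points without replicate 2. It was 1.39 points with lists of equal length and 1.58 points when peaks had to cover 50% of a region. The same order was seen at regions with 1 Pro peak and no Sen peak, with 9.94% and 4.29% after p300/CBP knockdown and 2.88% and 3.28% in Sen. It was therefore not confined to the closed regions. At kept regions the p300/CBP knockdown mean was the lower, with 62.6% against 70.0%, and the ranges overlapped. At the regions in both JUN-family knockdown lists the shares were 20.6% and 7.75% after p300/CBP knockdown and 4.96% and 6.51% in Sen, and at the regions in both siFOXF1/2 lists they were 24.6% and 13.4% after p300/CBP knockdown and 8.58% and 7.09% in Sen. Where none of the 4 paired-end knockdown lists held a peak, they were 3.60% and 0.772% after p300/CBP knockdown and 0.772% and 1.42% in Sen.

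Both p65 knockdown libraries lay below both single-end Sen libraries, and the mean difference was −2.297 points (p = 0.333 in the two-sided exact permutation test, its smallest value), or −1.17 points without p65 knockdown replicate 2. The lists were the shortest of all, with 44037 and 17899 peaks after p65 knockdown and 54612 and 67661 in Sen. With lists of equal length the difference was 0.0778 points in the other direction, and with peaks covering 50% of a region it was −0.364 points. At regions with 1 Pro peak and no Sen peak the difference was −2.29 points, and at kept regions −23.8 points. Lower shares after p65 knockdown were thus not confined to the closed regions.

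The closed regions were scattered along the chromosomes. Their median width was 346 bp, against 784 bp for kept regions, and the Pro peak alone had a median of 258.5 bp against 441 bp. Much of this went with strength: kept regions weighted to the same Pro strength had Pro peaks of 314 bp, and regions in 1 and 2 Sen lists had medians of 264.5 and 266.5 bp. The nearest other region held by all Sen libraries lay a median of 8107 bp away, against 7162 bp for kept regions, so a closed region usually had open senescent chromatin in its neighbourhood, and 56.3% had it within 10 kb (63.2% for kept regions). Closed regions were spread over all 22 autosomes. The share of regions in both Pro lists that were closed ran from 1.93% on chromosome 19 to 5.28% on chromosome 4 and 5.26% on chromosome 21, around a median of 3.95%.

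Some lay close together. The next region of both Pro lists along the chromosome was also closed after 6.44% of closed regions, beside 3.96% over all such regions. This share was 3.60% at a −log10 q of at least 20 in Pro, 16.0% with lists of equal length and 10.4% with peaks covering 50% of a region, settings under which the closed regions also differ in number. In total 390 closed regions (17.6%) had another within 50 kb and formed 178 runs of 2 or more, 27 of them of 3 or more. The number of runs was 443 without Pro replicate 1, 381 without Pro replicate 2, 1227 with lists of equal length, 32 at a −log10 q of at least 20, and 395 or 294 with Sen replicates 1 and 2 or 3 and 4 alone. Regions in a run may share a domain and are not independent of each other.

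The 5 runs with the most members differed in their state after knockdown. At chr4:136122280-136177814 all 4 regions of both Pro lists were closed, with Pro levels of 13.8 to 18.5, and all 4 were listed in both JUN-family knockdown libraries, at levels of 7.79 to 20.8. No siFOXF1/2 library listed any of them, and no region of all 4 Sen lists lay in the span. At chr1:155859456-155946684 the 4 closed regions, at Pro levels of 11.7 to 39.7, had no peak in any knockdown library, and 7 regions held by all Sen libraries lay among them. At chr7:94021263-94069431 the 4 closed regions had Pro levels of 14.5 to 37.6, no JUN-family knockdown peak and, at 2 of them, a siFOXF1/2 peak in 1 library. At chr7:76867403-76918448, 2 of 4 were listed in both JUN-family knockdown libraries and none in siFOXF1/2. The longest run by count, chr10:42791281-42818121, held 5 closed regions of low Pro level, 8.06 to 11.2, of which 1 had a peak in 1 JUN-family knockdown library. Its span held 7 regions of both Pro lists and none of all 4 Sen lists. Regions where reads map unreliably were not filtered out here, so such a run may not reflect chromatin.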

How the data were processed

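ATAC-seq peak lists of 16 libraries, 10 paired-end and 6 single-end, were analysed. Bowtie2 2.3.4.1, SAMtools 1.9, deepTools 3.1.1, MACS2 2.1.1 and build hg19 are named in the submitters' processing notes, with no role or order. The sources used here do not describe read shifting for the transposase, how duplicates were treated or how the caller was set. Peak names in the single-end lists contain the tag rmdup, which may stand for removal of duplicates. Per the file layout, peaks were called by the authors per library and not on pooled replicates. The deposited lists give a fold enrichment ratio over local background, −log10 p and −log10 q, a score that follows −log10 q and was not used, and the summit position.

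Peaks on chromosomes 1 to 22 were merged at 1 bp overlap, and closed regions, the classes and rankings were chosen with earlier results of these data known. A whole summit pileup was recovered from the deposited fold and −log10 p (Poisson model) for 100% of peaks, with a tolerance of 0.002 in −log10 p, scaled up above a −log10 p of 10; the 1st percentile of local background served as genome-wide background. The bound on the fold leaves out the minimum length of a peak. No count test was run. Shares per library were compared in exact permutation tests, two-sided, and the merging, recovery and test were checked on simulated data. Named regions are the 12 strongest closed regions, the 5 strongest of each class, the 5 whose weakest knockdown peak had the highest −log10 q and the 5 runs (gaps up to 50 kb) with the most members, from which the text gives the leading ones. Alternatives were stricter thresholds, equal list lengths, another overlap, 500 bp windows, another merge, chromosome X, subsets of Sen, each library left out and a replicate block; the held-out comparison and the local-background bound were added after seeing the data. Python 3.11.15, pandas 2.3.3, numpy 2.4.6, SciPy 1.17.1 and matplotlib 3.10.9 were used. Motif searches, gene names and marker checks need an hg19 sequence and annotation and were not used here, and no sequence is printed for that reason.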

Additional observations from a re-analysis of the deposited data

How the results depend on the processing

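Of 10 results tried under 30 settings, 3 values changed direction. With a −log10 q of at least 20 in Pro there were 807 closed regions, of which 48.4% on average had a JUN-family knockdown peak and 4.58% a single-end Sen peak. Lists of equal length, 58955 paired-end and 17707 single-end peaks, gave 7066 regions, 45.0% with a JUN-family knockdown peak, 21.1% with a siFOXF1/2 peak and 0.821% with a single-end Sen peak, and turned the p65 knockdown minus Sen difference to 0.0778 points. Peaks covering 50% of a region gave 32.3% for JUN-family knockdown and 0.513% for single-end Sen, and 500 bp windows 6.07% for single-end Sen. Sen replicates 1 and 2 alone gave 3587 regions with 46.4%, 37.1% and 9.02% for JUN-family knockdown, siFOXF1/2 and single-end Sen. Sen replicates 3 and 4 alone gave 31.5%, 41.4% and 4.23%, and turned JUN-family knockdown minus siFOXF1/2 to −9.90 points, as did leaving out Pro replicate 1 with −1.12 points. The causes were not tested. Leaving out 1 library at a time gave 2220 to 3736 regions, 27.1% to 38.7% for JUN-family knockdown, 27.3% to 35.4% for siFOXF1/2, 2.89% to 4.63% for single-end Sen, and differences of −1.12 to 9.02 points for JUN-family knockdown minus siFOXF1/2, 2.03 to 9.41 for p300/CBP knockdown minus Sen and −3.42 to −1.17 for p65 knockdown minus Sen. The held-out differences ran from 4.45 to 19.6 points for JUN-family knockdown and from 18.4 to 25.4 points for siFOXF1/2. All 12 strongest regions were still closed under each of these alternatives. Many of the alternatives only remove peaks or Sen lists, and the 12 had the strongest Pro peaks, so this was largely fixed by the choice. Runs of 2 or more numbered 86 with gaps up to 20 kb and 290 with gaps up to 100 kb. With libraries scaled on kept regions 1787 regions had a 2-fold bound.

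Replicate numbers are shared numbers only, with 2 pairs a comparison. In the groups compared, deviations of same-numbered libraries correlated at 0.0617 between JUN-family knockdown and siFOXF1/2, −0.00473 between p300/CBP knockdown and single-end Sen and −0.0528 between p65 knockdown and single-end Sen; for Pro and siFOXF1/2, not compared directly, the value was 0.203. With the replicate number as a block the differences were 4.95, 5.72 and −2.30 points, each with p = 0.5 in the exact sign-flip test of 2 pairs, the smallest possible. The smallest listed level was 14.7 to 25.7 in the single-end lists and 4.58 to 6.31 in the paired-end lists.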
